A study of Mus musculus with 12 samples.

Results

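The genes described here are 8 annexins (Anxa1, Anxa2, Anxa3, Anxa4, Anxa5, Anxa6, Anxa7 and Anxa11), dysferlin (Dysf) and caveolin-3 (Cav3). They were taken by name from the gene column of the array, with every probe that carries one of those names. This gave 10 genes with 15 probes among 41174 gene probes in all. Of these probes, 14 were well above background on all 12 arrays, and each of the 10 genes was among the 16462 genes and unnamed probes that were tested.

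Gene expression was measured in quadriceps muscle of C57BL/6J male mice aged 13 weeks, with 1 one-colour Agilent array per mouse. The exercised group held 6 mice that had trained on a motorized treadmill for 4 weeks, and their muscle was taken 3 h after the last bout. The sedentary group held 6 untrained mice. No mouse was trained without a last bout shortly before sampling, so an effect of the training period and an effect of that bout cannot be told apart. Mice are named here by the set and the animal number in their titles, so that s1m1 is animal 1 of set 1, and the titles do not say what a set is.

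A tear in the membrane of a muscle fibre lets calcium in, and the calcium recruits proteins that close the wound. Annexins bind acidic phospholipids when calcium is present and collect at the torn edge, where they join membranes and bring in partner proteins. Dysferlin is a large membrane protein with calcium-binding C2 domains that takes part in bringing vesicles to the wound, and its loss causes limb-girdle muscular dystrophy. Caveolin-3 is the muscle form of the protein that coats caveolae, the small pits of the fibre membrane, and its mutations also cause muscle disease.

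Each probe is a 60-base oligonucleotide. The sequences below are those of the annexin A2 probes, on which the only called difference among these genes rests, and of a probe each for the related annexin A1, for annexin A6 and for dysferlin. Capitals mark the longest run of bases that the probe shares with a probe of another of the 10 genes.
Anxa2 A_52_P62037: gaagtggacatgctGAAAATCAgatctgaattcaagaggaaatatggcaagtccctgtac
Anxa2 A_51_P165342: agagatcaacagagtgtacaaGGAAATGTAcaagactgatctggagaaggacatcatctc
Anxa1 A_51_P283590: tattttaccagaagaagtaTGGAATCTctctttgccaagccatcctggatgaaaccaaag
Anxa6 A_51_P231979: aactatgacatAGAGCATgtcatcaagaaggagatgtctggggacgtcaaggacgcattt
Dysf A_52_P233801: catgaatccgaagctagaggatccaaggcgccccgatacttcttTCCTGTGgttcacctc
The longest such run was 9 bases, between Anxa2 probe A_51_P165342 and an Anxa7 probe. On genome build mm9 the array annotation places A_52_P62037 at chr9:69337510-69337569 on the plus strand. It places A_51_P165342 at chr9:69330846-69331620 on the same strand, which is 775 genomic bases for a 60-base probe, so that this probe joins separate exons. The Anxa2 probes start 466 bases apart in the transcript and share no bases of it. The Anxa1 probe lies at chr19:20448248-20449761 on the minus strand, the Anxa6 probe at chr11:54798588-54798647 on the minus strand and the dysferlin probe at chr6:84155861-84157119 on the plus strand.

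The arrays were alike in depth. Between 22414 and 24858 probes were well above background on exercised arrays, against 21707 to 25229 on sedentary arrays, and 0 gene probes were saturated on any array. The 75th percentile of the signal ran from 179 to 230 intensity units on exercised and from 167 to 237 on sedentary arrays. All 14 markers of skeletal muscle fibres, such as Acta1, Ckm and Myh4, were above background on all 12 arrays. Levels below are given as relative signal, the signal of a probe divided by the 75th percentile of its own array. Differences are log2 exercised minus sedentary from limma, and a gene was called at a Benjamini-Hochberg adjusted p below 0.05 over all genes tested.

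Annexin A2, which forms a complex with S100a10 and links membranes to actin, was higher in exercised muscle, and it was the only one of the 10 genes to pass the test. The relative signal of its brighter probe, A_52_P62037, was 5.78, 5.71, 4.84, 5.85, 4.30 and 4.66 in exercised mice, against 4.63, 3.89, 3.51, 3.76, 3.74 and 3.74 in sedentary mice. Of the exercised mice, 5 lay above every sedentary mouse, and the groups overlapped only through exercised s2m4 at 4.30 and sedentary s1m1 at 4.63. The log2 difference was 0.42 ± 0.10 (SE, n = 6 each), a 1.33-fold higher level with a 95% interval from 1.15 to 1.54 (limma, adjusted p = 0.0328). The second probe, A_51_P165342, gave 2.63, 2.56, 2.02, 2.69, 1.88 and 2.05 in exercised mice, against 2.02, 1.62, 1.45, 1.41, 1.59 and 1.62 in sedentary mice. The same sedentary mouse, s1m1, was again the highest of its group. Fitted among all 22916 probes, this probe was 1.42-fold higher (95% interval 1.19 to 1.69, limma adjusted p = 0.0315) and A_52_P62037 had an adjusted p of 0.0349. Both probes were among the 3.32% of probes called in either direction.

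The annexin A2 call was lost in several other fits. The mice were spread unevenly over 3 slides: slide 1 carried 1 exercised and 3 sedentary mice, slide 2 carried 3 exercised and 1 sedentary, and slide 3 carried 2 of each. Within the slides the log2 difference was 0.34, 0.35 and 0.46, the first and second each resting on a group of 1 mouse. With slide as a block it was 0.39, with a limma adjusted p of 0.0606, so that this limma fit called 0 of the 10 genes and 2.13% of all genes. At an unadjusted p below 0.05 the same fit had 1 of the 10 (Anxa2) and 14.4% of all genes. The call was also lost when any of exercised s1m1, s1m5 or s2m3, or any of sedentary s1m5, s1m6, s2m2, s2m4 or s2m5, was left out. In those 8 fits the log2 difference lay between 0.38 and 0.42 and the limma adjusted p between 0.0613 and 0.0774.

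**Figure D1:**
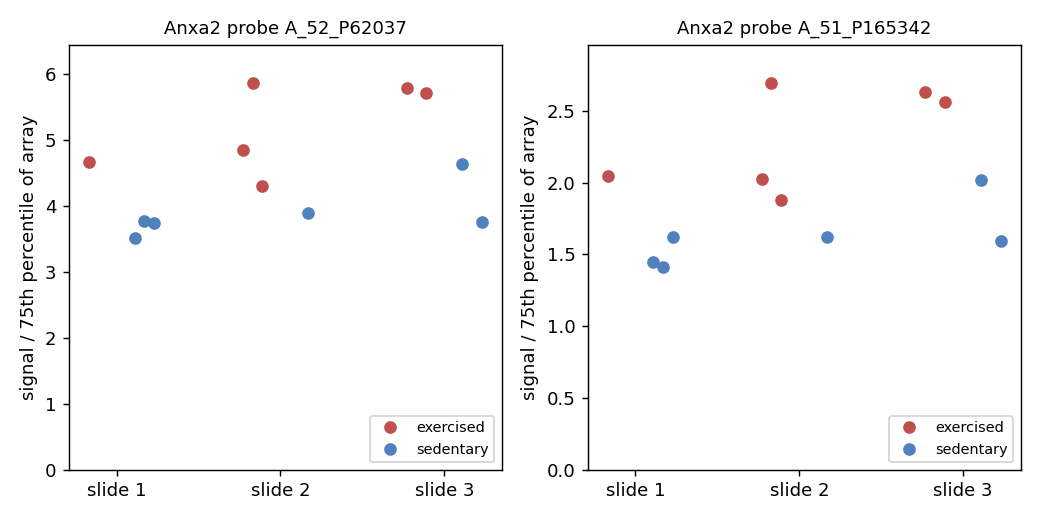
Relative signal (signal divided by the 75th percentile of the array) of the Anxa2 probes on each of the 3 slides; each point is 1 mouse, exercised on the left of each slide and sedentary on the right. On every slide each exercised mouse lies above each sedentary mouse of that slide, for both probes. Slides 1 and 2 each held a group of 1 mouse, and the share of all genes arranged this way was not computed.

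Markers of other cell types differed between the groups to varying degrees, and their part in the annexin A2 difference was not tested. The covariate fits given here and below cannot separate that part, since scores such as the tendon and endothelial ones differed with group. In bulk muscle, fewer cells of a type and less RNA per cell cannot be told apart. All 10 tendon markers measured were above 0, beside 42.1% of all genes, with a median log2 difference of 0.82. None was called by limma and 8 had an unadjusted p below 0.05, beside 16.2% of all genes. Their summed level, as the mean deviation from the 12-array means, ran from -0.37 to 1.11 in exercised and from -1.49 to 0.02 in sedentary mice. None of the 10 was below background on all arrays. With that score as a covariate the annexin A2 difference was 0.36 on the log2 scale (limma adjusted p = 0.215). The 11 fibroblast markers included none called by limma, 1 at an unadjusted p below 0.05 and 8 above 0, with scores from -0.31 to 0.26 in exercised and from -0.37 to 0.36 in sedentary mice, and with that score as a covariate the difference was 0.38 (limma adjusted p = 0.0625).

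Of 10 endothelial markers, 3 fell, beside 3.66% of all genes called in either direction, and 9 were below 0, beside 9532 of all 16462 genes. The endothelial scores ran from -0.30 to -0.04 in exercised and from -0.06 to 0.31 in sedentary mice. The genes that fell were Kdr, the main VEGF receptor, by 0.77 on the log2 scale, Egfl7, a secreted endothelial protein, by 0.57, and Cldn5, a tight junction protein, by 0.87 (limma adjusted p = 0.00676, 0.027 and 0.027). In the fit that blocks on slide Kdr stayed called (limma adjusted p = 0.0179), whereas Egfl7 and Cldn5 did not (0.0745 and 0.0705). With the endothelial score as a covariate the annexin A2 difference was 0.40 (limma adjusted p = 0.379). All 8 Schwann and nerve markers above background lay above 0, beside 42.1% of all genes, with a median of 0.30. None was called by limma, 5 had an unadjusted p below 0.05 (16.2% of all genes did), and 1 further marker was below background on every array. With their score as a covariate, a fit chosen after seeing the data, the annexin A2 difference was 0.39 (limma adjusted p = 0.217). White adipocyte, macrophage, muscle fibre and satellite cell scores as covariates left annexin A2 called, the last of these fits and the muscle fibre one also chosen after seeing the data.

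Brown adipocyte markers had the highest median log2 difference of the cell type lists, 1.16 over the 5 measured. Of these, 1 was called by limma, 3 had an unadjusted p below 0.05 (16.2% of all genes did) and 4 were above 0 (42.1% of all genes were). One further marker was below background on every array. The called marker was Ppara, a fatty acid-sensing receptor, which rose by 1.16 on the log2 scale (limma adjusted p = 0.00212). Which cells its RNA came from was not tested, so the list and its score need not stand for brown fat. Ucp1, the uncoupling protein of brown fat, was well above background on 7 of 12 arrays, with a log2 difference of 4.35 (limma adjusted p = 0.18), and Cidea, a lipid droplet protein, had a difference of 1.79 (limma adjusted p = 0.258). The score of the list ran from -0.99 to 1.71 in exercised and from -1.47 to 0.56 in sedentary mice. With that score as a covariate, a fit chosen after seeing the data, the annexin A2 difference was 0.27, the lowest of all alternatives (limma adjusted p = 0.268).

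Annexin A3, and annexin A1, which is known for its anti-inflammatory signalling through formyl peptide receptors, had positive differences that did not pass the test. The relative signal of Anxa3 was 6.22, 7.20, 7.46, 7.84, 7.48 and 7.47 in exercised mice, against 7.98, 5.62, 5.70, 5.84, 4.82 and 6.16 in sedentary mice. Every exercised mouse lay above 5 of the 6 sedentary mice, and sedentary s1m1, at 7.98, lay above them all. The log2 difference was 0.29 ± 0.11 (SE, n = 6 each), a 1.22-fold level with a 95% interval from 1.04 to 1.43 (limma adjusted p = 0.185). Anxa1 had the same arrangement, with 5.91, 6.43, 5.81, 6.11, 7.45 and 6.04 in exercised mice and 7.70, 4.97, 5.30, 4.91, 4.33 and 5.81 in sedentary mice. Its log2 difference was 0.21 ± 0.12 (SE, n = 6 each; limma adjusted p = 0.444).

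Both values moved with sedentary s1m1, which was measured on slide 3. That mouse was singled out from its values for these same genes, so the counts without it were shaped by that choice. Without that mouse the groups did not overlap for Anxa2, for Anxa3 or, by a narrow margin, for Anxa1, as for 3.98% of the genes with a value on every remaining array. With all 12 mice the groups overlapped for each of the 10 genes, and they did not overlap for 2.99% of all genes. The log2 difference of Anxa3 was then 0.37 ± 0.08 (SE, n = 6 and 5; limma adjusted p = 0.0326) and that of Anxa1 0.32 ± 0.09 (limma adjusted p = 0.0917). That fit called 2 of the 10 genes, Anxa2 and Anxa3, beside 3.16% of all genes. Sedentary s1m1 was the highest sedentary mouse for Anxa1, Anxa2, Anxa3 and Anxa5 and the lowest for Anxa4, Anxa6, Anxa7 and Anxa11. A second probe named Anxa3, A_51_P430240, rests on another transcript record and was not well above background on any array.

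**Figure D2:**
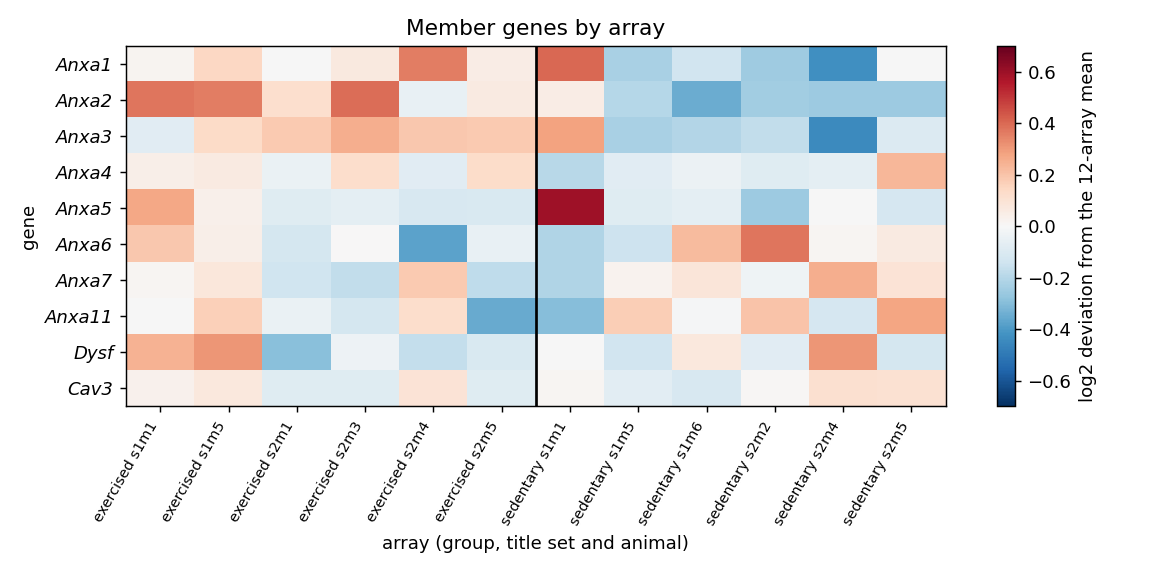
Log2 deviation of each gene (rows) from its own 12-array mean on each array (columns, the 6 exercised mice left of the line and the 6 sedentary mice right of it). Anxa2 is above its mean in most exercised mice, and sedentary s1m1 stands out from its group in Anxa1, Anxa3 and Anxa5.

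Annexin A5, a protein that forms lattices on exposed phosphatidylserine, was at like levels in both groups. Its relative signal was 10.3, 8.73, 8.02, 8.12, 7.89 and 7.89 in exercised mice, against 12.8, 8.02, 8.12, 7.13, 8.5 and 7.85 in sedentary mice. The highest mouse of each group was s1m1, both on slide 3. The log2 difference was -0.02 with a 95% interval from -0.30 to 0.26 (limma adjusted p = 0.959), and it was 0.09 without sedentary s1m1.

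Annexin A6, a double-length annexin of the repair cap in muscle, gave 4.50, 4.07, 3.63, 3.96, 3.05 and 3.82 in exercised mice and 3.42, 3.57, 4.61, 5.12, 4.00 and 4.12 in sedentary mice. The groups overlapped over most of their range. The log2 difference was -0.11 with a 95% interval from -0.35 to 0.14 (limma adjusted p = 0.726), and within slides 1, 2 and 3 it was -0.27, -0.02 and 0.21.

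Annexin A4 was read by a pair of probes. The brighter one ran from 1.34 to 1.55, with a median of 1.46, in exercised mice and from 1.24 to 1.66, with a median of 1.34, in sedentary mice, a log2 difference of 0.08 (limma adjusted p = 0.688). The dimmer probe, A_51_P256344, had a log2 difference of 0.22, with a 95% interval from 0.01 to 0.42 and an adjusted p of 0.288 among all probes. Neither passed the test.

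Annexins A7 and A11, which have long amino-terminal domains, showed no called difference. Anxa7 had 3 probes, and their log2 differences were -0.07, -0.11 and 0.04, with limma adjusted p from 0.771 to 0.941 among all probes. The brightest ran from 1.97 to 2.52 in exercised mice and from 1.92 to 2.65 in sedentary mice. Anxa11 ran from 2.33 to 3.34 in exercised and from 2.41 to 3.60 in sedentary mice, a log2 difference of -0.08 (95% interval -0.32 to 0.17, limma adjusted p = 0.812). Within slides 1, 2 and 3 its difference was -0.51, -0.19 and 0.29.

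Dysferlin had a relative signal of 7.44, 7.76, 5.12, 6.12, 5.59 and 5.82 in exercised mice, against 6.26, 5.72, 6.60, 5.94, 7.77 and 5.76 in sedentary mice. The highest exercised mice, s1m1 and s1m5, and the highest sedentary mouse, s2m4, were all on slide 3. The log2 difference was -0.02 with a 95% interval from -0.26 to 0.23 (limma adjusted p = 0.968). It was 0.30 in set 1 and -0.19 in set 2, and the test of that difference between the sets had an adjusted p of 0.548 in limma. Caveolin-3 ran from 43.9 to 49.7, with a median of 45.7, in exercised mice and from 43.0 to 50.2, with a median of 46.9, in sedentary mice. Its log2 difference of -0.02 had the narrowest 95% interval of the 10 genes, from -0.16 to 0.12 (limma adjusted p = 0.934).

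**Figure D3:**
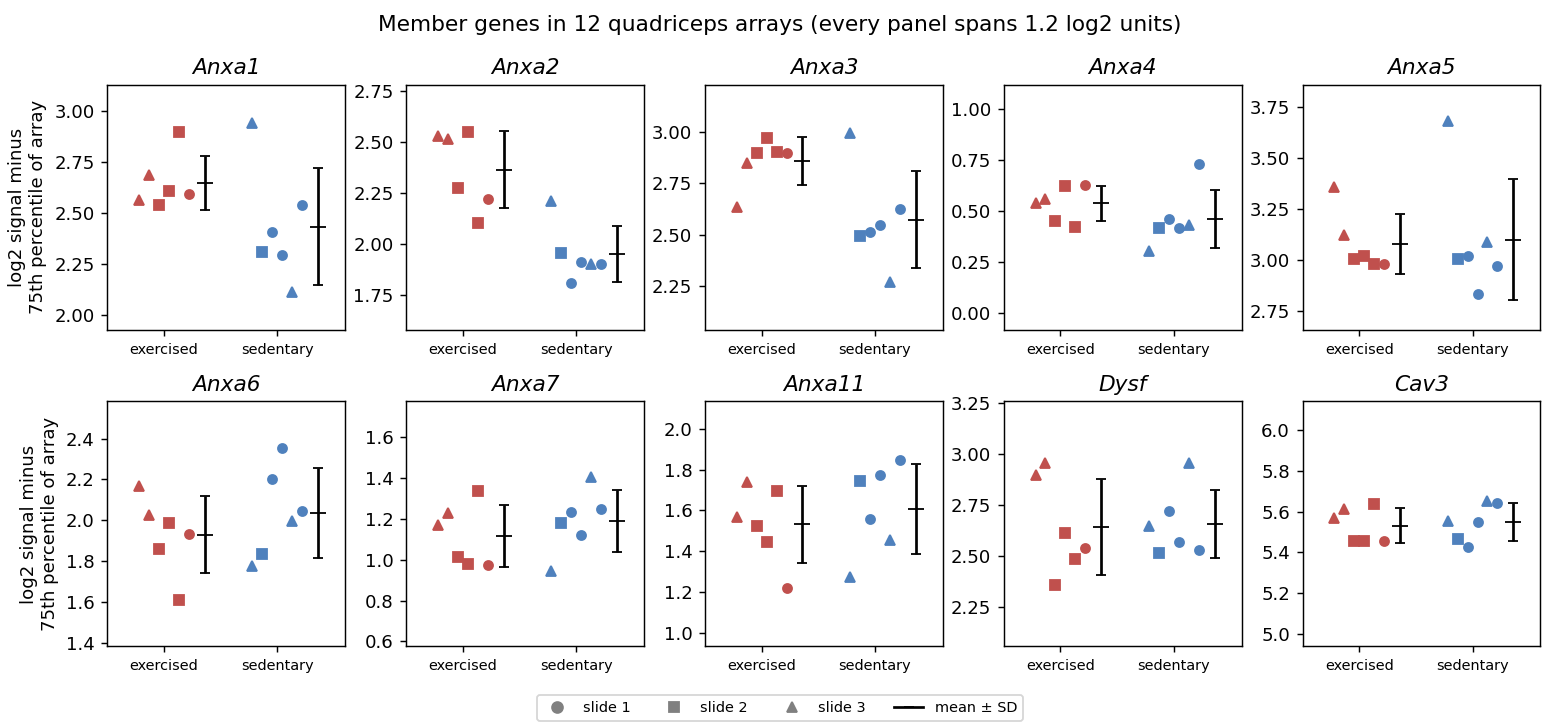
Log2 signal minus the 75th percentile of the array (vertical axis) for the brightest probe of each gene in the exercised (left) and sedentary (right) mice; symbols give the slide and bars the mean ± SD of 6 mice. Anxa2 shows the clearest separation, and sedentary s1m1 is the uppermost sedentary point for Anxa1, Anxa2, Anxa3 and Anxa5.

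Together, 1 of the 10 genes rose and 0 fell. The difference was above 0 for 4 of the 10 and below 0 for 6, beside 42.1% of all genes above 0. Over all genes tested 3.66% were called, with 299 up and 303 down. The median log2 difference of the 10 genes was -0.02, beside -0.03 over all genes. At an unadjusted p below 0.05, Anxa2 and Anxa3 passed, beside 2669 genes in all, 16.2% of those tested. In the limma test of a different training effect in the title sets none of the 10 passed. Dysf alone had an unadjusted p below 0.05 in that limma test, at 0.0224. The share of all genes below 0.05 in that test was not counted, so this value is not set apart from the background.

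**Figure D4:**
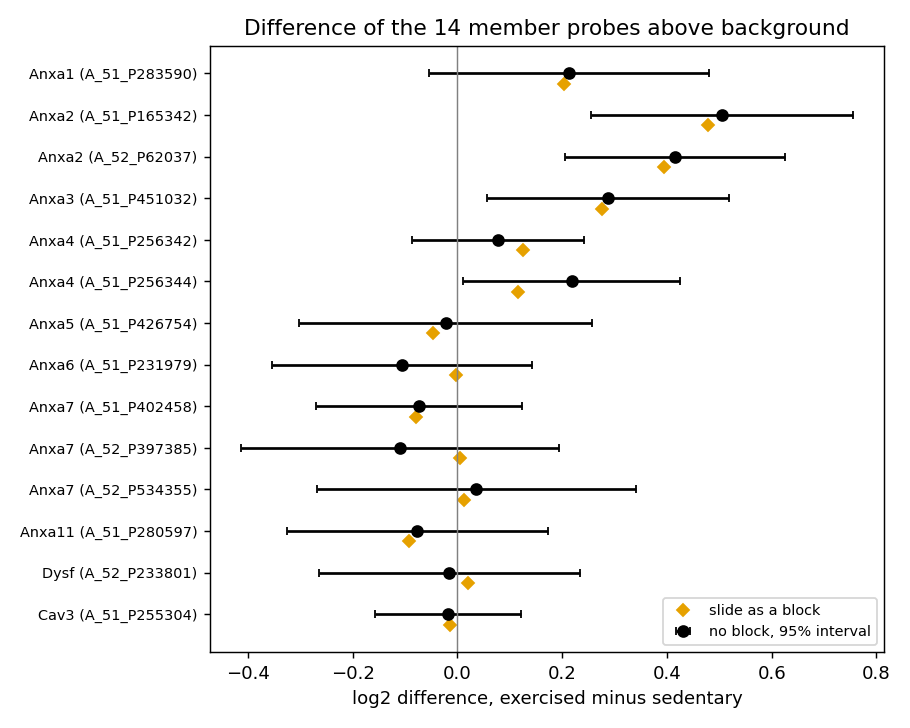
Log2 difference, exercised minus sedentary (horizontal axis), of the 14 probes above background; black points with bars are the fit without a block and its 95% interval, and diamonds the fit with slide as a block. Both Anxa2 probes lie farthest above 0, with differences of 0.42 and 0.51, and the intervals of Anxa3 and of the dimmer Anxa4 probe also lie above 0.

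Partners of the annexins and of dysferlin were taken as lists. Among 20 repair partners measured, which include calpains, anoctamins, syntaxin-4, galectins and EH-domain proteins, 2 rose and 0 fell, and the median log2 difference was 0.01. Over all genes 3.66% were called in either direction. At an unadjusted limma p below 0.05 there were 4 of the 20 partners, beside 16.2% of all genes. Ehd1, an ATPase of endosome recycling that shapes membranes, ran from 15.4 to 18.0 in exercised mice and from 12.3 to 14.4 in sedentary mice. Those ranges do not overlap, as for 2.99% of all genes in either direction. The level of Ehd1 was 1.23-fold higher (95% interval 1.13 to 1.35, limma adjusted p = 0.0154, and 0.0304 in the fit that blocks on slide). Capn2, the catalytic subunit of m-calpain, a calcium-activated protease, ran from 3.81 to 4.08 in exercised mice and from 3.30 to 3.61 in sedentary mice, again without overlap. It was 1.15-fold higher (95% interval 1.07 to 1.24, limma adjusted p = 0.0411), and it was not called in the fit that blocks on slide (0.091). Ehd1 stayed called whichever mouse was left out, with limma adjusted p between 0.0184 and 0.0409. Capn2 stayed called only without exercised s2m3 or without sedentary s1m1. Leaving out any other mouse gave a log2 difference between 0.19 and 0.21 and a limma adjusted p between 0.0638 and 0.088. Ehd1 was not called with the tendon, endothelial, Schwann or brown adipocyte score as a covariate (limma adjusted p = 0.0763, 0.299, 0.134 and 0.162), and its log2 difference was then 0.32, 0.29, 0.30 and 0.24. It was also not called with median scaling or with no filter on dim probes (limma adjusted p = 0.171 and 0.0676), at a log2 difference of 0.30 in both.

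The S100 proteins, which include partners of annexins, had 0 of 8 genes called by limma and a median log2 difference of 0.04. At an unadjusted p below 0.05 there were 2 of the 8, beside 16.2% of all genes. S100a10, the partner of annexin A2, ran from 9.39 to 11.1 in exercised mice and from 6.78 to 9.55 in sedentary mice. The ranges overlapped slightly, and its log2 difference of 0.30 ± 0.10 (SE, n = 6 each) did not pass (limma adjusted p = 0.116). Across the 12 mice, after removing the group means, Anxa2 and S100a10 had a Pearson r of 0.36 and a Spearman rho of 0.27 (permutation p = 0.233 and 0.376, adjusted over 4 partners 0.497 and 0.765), and r was 0.30 without the 2 mice farthest from the median of Anxa2. A slide held 4 arrays, too few for a value within slides.

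The remaining lists had no gene called by limma. At an unadjusted p below 0.05 they had 0 of 8, 0 of 11, 2 of 14, 1 of 5 and 0 of 4 genes in the order given here, beside 16.2% of all genes. Caveolar proteins gave 0 of 8, with a median of 0.03 and the smallest p for Cavin1, the caveolar coat protein, whose log2 difference was 0.13 (limma adjusted p = 0.462). Components of the ESCRT machinery, which pinches off damaged membrane, gave 0 of 11, with a median of -0.07 and a difference of -0.12 for Chmp2a (limma adjusted p = 0.431). The dystrophin complex, which ties the cytoskeleton to the matrix, gave 0 of 14, with a median of 0.03. Other ferlins and annexins gave 0 of 5, with a median of -0.10 and a difference of 0.56 for Anxa8 (limma adjusted p = 0.283). Annexin receptors and plasmin system genes gave 0 of 4, with a median of 0.03 and a difference of -0.25 for Plat, tissue plasminogen activator (limma adjusted p = 0.363).

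**Figure D5:**
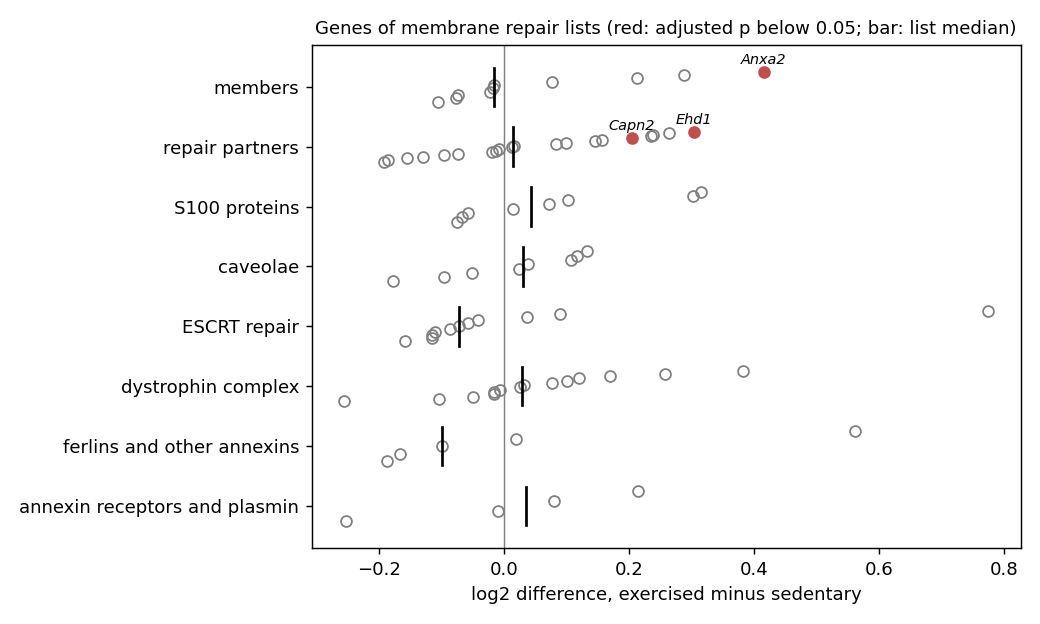
Log2 difference, exercised minus sedentary (horizontal axis), of each measured gene of the 10 genes and of 7 related lists; each circle is a gene, filled where the limma adjusted p was below 0.05, and the vertical bar is the list median. Anxa2, Ehd1 and Capn2 are the filled genes.

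The genes most like Anxa2 across the 12 mice, by Pearson's r of deviations from the group means, were Rcc2 at 0.91, Tax1bp3 at 0.87, Foxo6 and Ptbp1 at 0.85 each and Brd9 at 0.84. None of them was called between the groups. These correlations were ranked over all genes on the same arrays and are given as a description.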

How the data were processed

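RNA of 12 quadriceps muscles was hybridised to one-colour Agilent arrays. The deposited files hold linear spot intensity, which the authors obtained with Agilent Feature Extraction 10.5.1.1 per the file headers, with background subtraction and detrending within each array, whereas the submitters' processing notes name version 9.1. The deposited table of values holds the same processed intensity and served as an alternative. Probe positions come from the annotation of the array (mm9).

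Control spots and outlier spots were left out and spots of a probe averaged. From the log2 of the deposited processed intensity, the 75th percentile of the same array was subtracted. Probes well above background on at least 6 of 12 arrays were kept, 22916 of 41174. Probes were named through RefSeq accessions where possible (26876), otherwise by symbol or synonym, and the brightest probe stood for a gene, giving 13180 named genes and 3282 unnamed probes. Groups were compared with limma 3.58.1 in R 4.3.3, with Benjamini-Hochberg adjustment; arrays limit the precision through their number. Permutation tests of correlations were two-sided, with 100000 draws within the groups. The fit was tested on simulated data. Titles share 4 numbers between the groups; 3 of the 4 pairs correlated above 0.1 and 1 at -0.185, so the numbers were not taken as pairs.

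The 10 genes and all lists were chosen with earlier results of these data known. Named genes are the members, called genes of each pathway list (up to 8) or the one of smallest p, called genes of the cell type lists (up to 3 each) and the 5 genes most correlated with a called member. Acta1, Ckm, Myh4, Ucp1, Cidea, Pax7 and Calcr were named beyond that rule. Fer1l5, Fer1l6, Trim72, Ahnak2, Fpr3, Ly6g and Pck1 are not analysed here. Alternatives covered scaling, background correction, probe filters, blocks, variance models, marker covariates and leaving out each array. One gene of the related lists is not reported here.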

Additional observations from a re-analysis of the deposited data

Results flagged for a closer look

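In 4 of the 20 groups of 6 log2 values examined (10 genes in each group of mice), 1 mouse lay far from the others. The rule was Dixon's gap ratio of the log2 values at its 95% critical value. Chance flags about 1 in 20 such groups. Sedentary s1m1 was high for Anxa2, at a relative signal of 4.63, and for Anxa5, at 12.8. Exercised s1m1 was low for Anxa3, at 6.22. Sedentary s2m5 was high for Anxa4, at 1.66. Both s1m1 mice were measured on slide 3 and sedentary s2m5 on slide 1.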

How the results depend on the processing

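The annexin A2 difference was above 0 in 41 of 41 alternatives, between 0.27 and 0.48 on the log2 scale, and was called in 17. The 41 include the fits within slides 1 and 2, each with a group of 1 mouse, and the normexp fits, which failed on 4 of 12 arrays. All 41 reuse arrays of the same 12 mice, so they are not independent of each other. Leaving out each mouse gave 0.38 to 0.47, with 0 to 2 of the 10 genes called (0 in 8 fits) and 418 to 571 of all genes. Anxa3 was called in 2 alternatives, both without sedentary s1m1. Anxa1, Anxa3 and Anxa4 kept their sign in all 41. Of the partners, in the same alternatives, Ehd1 was called in 28, Capn2 in 11 and S100a10 in 0, each with the same sign in all 41.

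Where annexin A2 lost its call, its difference was 0.41 with median scaling and 0.42 with no filter on dim probes, which tested more genes and called 317. It was 0.39 with slide as a block, which called 350 of all genes. Within slides 1, 2 and 3 it was 0.34, 0.35 and 0.46, with 0, 8 and 0 of all genes called by limma and 1009, 963 and 2140 at an unadjusted p below 0.05; slides 1 and 2 held a group of 1 mouse, assumed to vary like the other group. With a covariate it was 0.36 (tendon, 310 of all genes called), 0.38 (fibroblast), 0.40 (endothelial, 82) and, added after seeing the data, 0.39 (Schwann, 175) and 0.27 (brown adipocyte, 286). Leaving aside the fits within slides 1 and 2, each of these fits called 0 of the 10 genes. At an unadjusted limma p below 0.05, median scaling had 12.5% of all genes and the fibroblast covariate 15.3%, against 16.2% in the main fit. Each of these had 2 of the 10 genes at that threshold. With slide as a block and sedentary s1m1 left out, also added later, the annexin A2 difference was 0.43, with 230 of all genes called, among them Anxa3. At an adjusted p below 0.10, 1008 genes were called. The cause of these changes was not tested.

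Of the mouse numbers, 4 occur in both groups. On those 8 arrays the annexin A2 difference was 0.35 both with the replicate block and unpaired, with 0 of the 10 genes called by either fit and 29 against 130 of all genes. Anxa6 was 0.020 and Dysf 0.057 in both.

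Normexp background correction failed on 4 of 12 arrays: its corrected 10th percentile there was 732 or more, against 60.7 or less on the others. It called 0 of all genes in limma, with 0.65% at an unadjusted p below 0.05, and 0 of the 10, with differences of 0.42 for Anxa2, 0.14 for Anxa5, 0.029 for Anxa6, 0.022 for Anxa7, 0.17 for Dysf and 0.30 for Cav3. A maximum likelihood fit, added later, failed on as many arrays, with 0 and 0 called and 0.42, 0.14, 0.030, 0.023, 0.17 and 0.30 for the same genes. Subtracting the background with an offset, added because of this, called Anxa2 at 0.43, with Anxa5 at 0.016, Dysf at 0.011 and Cav3 at 0.0064.

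Genes near 0 and not called changed sign elsewhere. Dysf was 0.020 with slide as a block, 0.013 with title set as a block, 0.12 within slide 3, and 0.12 and 0.056 with the endothelial and muscle fibre covariates. Anxa5 was 0.038 within slide 1, 0.021 with title set as a block, 0.060 with slide as a block without sedentary s1m1, and 0.30, 0.018, 0.054 and 0.0064 with the endothelial, muscle fibre, Schwann and satellite cell covariates. Cav3 was 0.051 within slide 2 and 0.015 with the endothelial covariate, and with the brown adipocyte covariate Anxa7 was 0.068 and Cav3 0.012. Within slide 3, Anxa6 was 0.21, Anxa7 0.025 and Anxa11 0.29, and with the tendon covariate Anxa6 was 0.036 and Anxa11 0.030. Leaving out each mouse gave -0.079 to 0.045 for Dysf, -0.078 to 0.094 for Anxa5 and -0.042 to 0.0029 for Cav3.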

Other observations

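Among the other cell type lists, smooth muscle and pericyte genes had 2 of 9 that rose and 1 that fell in exercised muscle. Over all genes 3.66% were called in either direction. Cnn1, the calponin of smooth muscle, ran from 1.23 to 1.58 in exercised mice and from 0.53 to 1.04 in sedentary mice, a 1.88-fold higher level (limma adjusted p = 0.00545). Myh11, smooth muscle myosin, was 1.37-fold higher (limma adjusted p = 0.042; not called with slide as a block, 0.134), and Kcnj8, a potassium channel subunit of pericytes, fell by 0.63 on the log2 scale (limma adjusted p = 0.0134). The satellite cell list had a median log2 difference of -0.07, with 5 of 8 below 0, beside 9532 of all 16462 genes. Among the 5 were Pax7 at -0.34 and Calcr at -0.57, neither called (limma adjusted p = 0.357 and 0.591). The 2 that rose were Chrdl2 and the surface proteoglycan Sdc4, by log2 0.58 and 0.42 (limma adjusted p = 0.0104 and 0.0167). Cd247, the zeta chain of the T cell receptor, fell by 1.44 on the log2 scale (limma adjusted p = 0.0125; not called with slide as a block, 0.055) and was well above background on 9 arrays.

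Across the 12 mice, with group means removed, 110 relations between the 10 genes and 11 marker scores were computed, and none passed by Pearson's r after adjustment. By rank, a pair of relations passed. Anxa1 and the fibroblast score had an r of 0.81 and a Spearman rho of 0.89 (permutation p = 0.00364 and 0.00064, adjusted 0.133 and 0.0412), with r = 0.74 without the 2 mice farthest from the median score. Anxa5 and the satellite cell score had an r of 0.90 and a rho of 0.87 (permutation p = 0.00107 and 0.00075, adjusted 0.118 and 0.0412), with r = 0.66 without those 2 mice. The arrays of slide 3 had the highest Anxa5 signals, from 8.50 to 12.8, and satellite cell scores from 0.008 to 0.37. On the other slides only exercised s2m3 had a satellite cell score above 0, at 0.054. A part of slide in this relation was not tested. A slide held too few arrays for values within slides. Of 45 pairs among the 10 genes, none passed by r, and Anxa1 with Anxa3 had an r of 0.84 and a rho of 0.73 (permutation p = 0.00831 and 0.0145, adjusted 0.26 and 0.311), with r = 0.69 without the 2 mice farthest from the median of Anxa1.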
